A study of Mus musculus with 40 samples.

Results

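The genes described here are 9 rate-controlling enzymes of glucose metabolism, chosen by name from the pathway. They are 4 enzymes of gluconeogenesis (G6pc, Pck1, Fbp1 and Pcx) and 5 of glycolysis (Hk1, Hk2, Pfkl, Pkm and Ldha), out of 28467 genes in the bulk table and 32285 in the nucleus table. All 9 were present in both tables.

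The samples were right kidneys of male C57BL/6 mice aged 8 to 12 weeks, with no genetic change named in the labels. In the nephrectomy groups (UNx) the left kidney had been removed, so the right kidney was the remaining one, and the sham groups had sham surgery. Bulk RNA-seq of a kidney cross-section covered 6 sham and 6 UNx mice per time point (24, 48 and 72 h from the operation), and single-nucleus RNA-seq covered 2 sham and 2 UNx other mice at 24 h. The comparison in each case asked how RNA of these enzymes in the remaining kidney differed from that in sham kidneys of the same time.

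Bulk libraries held 14.9 to 24.1 M (1000000) estimated counts. The 24 h libraries carry the label of batch 1 and those of 48 and 72 h that of batch 2, so time and batch cannot be told apart between 24 h and the later times, whereas sham and UNx of a time share a batch. UNx replicates 1 to 5 of 48 h stood apart from the other libraries of their batch: mitochondrially encoded genes took 25.8 to 26.4% of their counts, against 15.2% in UNx replicate 6 and 14 to 15.5% in the 48 h shams. On a score made from pseudogenes, set to average 0 in later shams and 1 in the 24 h shams, these 5 libraries lay at 0.645 to 0.73 and replicate 6 at 0.00609. At 24 h the UNx libraries lay at 0.676 to 0.887 and the shams at 0.963 to 1.04. Their mitochondrial shares were 21.5 to 24.9% and 23.5 to 26.7%. Values with and without the UNx libraries of 48 h set apart here, or with the score in the model, are given for part of the results. They stand beside these results or with the processing alternatives.

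Glycolysis breaks glucose down to pyruvate, and gluconeogenesis builds glucose from lactate, glutamine and other small molecules by reversing most of those steps. Some glycolytic steps cannot run backwards, and gluconeogenesis passes them with enzymes of its own. Pyruvate carboxylase (Pcx) makes oxaloacetate in mitochondria, phosphoenolpyruvate carboxykinase (Pck1) turns it into phosphoenolpyruvate, fructose-bisphosphatase (Fbp1) removes a phosphate further up, and glucose-6-phosphatase (G6pc) releases free glucose. In the opposite direction, hexokinases (Hk1, Hk2) trap glucose in the cell, phosphofructokinase (Pfkl is the liver-type subunit) commits it to breakdown, pyruvate kinase (Pkm) makes pyruvate, and lactate dehydrogenase A (Ldha) converts between pyruvate and lactate. The kidney is, with the liver, an organ that releases glucose, and it does so in the proximal tubule, which uses little glucose itself. Segments further along the nephron rely more on glycolysis.

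On build GRCm38 (mm10, the build that the submitters' processing notes name for the nuclei), the gluconeogenesis members lie at chr11:101367561-101377903 (G6pc, ENSMUSG00000078650, + strand), chr2:173153048-173159273 (Pck1, ENSMUSG00000027513, + strand), chr13:62864753-62888282 (Fbp1, ENSMUSG00000069805, - strand) and chr19:4510472-4621752 (Pcx, ENSMUSG00000024892, + strand). The glycolysis members lie at chr10:62268855-62379908 (Hk1, ENSMUSG00000037012, - strand), chr6:82725025-82774454 (Hk2, ENSMUSG00000000628, - strand), chr10:77986947-78010083 (Pfkl, ENSMUSG00000020277, - strand), chr9:59656368-59679375 (Pkm, ENSMUSG00000032294, + strand) and chr7:46841475-46855627 (Ldha, ENSMUSG00000063229, + strand). These are whole genes, and counts refer to all exons of a gene.

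The promoters of 3 members are shown because these genes carry the results: Pck1 is the member called at each time, Ldha had the lowest p of the members at 24 h, and G6pc is the member called over all nuclei once mice are paired by batch. Each is the 250 bases before the transcript start given by RefSeq (build GRCm38.p6), 5′ to 3′ on the gene's strand. Capitals mark matches on either strand to short motifs: the cAMP response element core TGACG, the hypoxia response core ACGTG or GCGTG, the E-box CACGTG, the insulin response motif TGTTTTG, the FoxO and FoxA core TGTTTAC, the glucocorticoid receptor core TGTTCT and the TATA box TATAAA. An E-box always contains a hypoxia core, so these matches overlap.
Pck1, chr2:173152823-173153072, + strand: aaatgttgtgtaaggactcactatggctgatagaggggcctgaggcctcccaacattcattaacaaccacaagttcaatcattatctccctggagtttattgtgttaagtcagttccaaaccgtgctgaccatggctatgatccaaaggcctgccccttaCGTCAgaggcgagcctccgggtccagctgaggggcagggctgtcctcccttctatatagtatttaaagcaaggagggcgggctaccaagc
G6pc, chr11:101367466-101367715, + strand: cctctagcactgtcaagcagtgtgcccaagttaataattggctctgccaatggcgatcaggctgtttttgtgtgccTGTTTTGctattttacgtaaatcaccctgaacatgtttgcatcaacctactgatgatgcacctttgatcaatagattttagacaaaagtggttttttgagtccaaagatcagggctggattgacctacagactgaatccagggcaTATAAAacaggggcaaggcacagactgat
Ldha, chr7:46845554-46845803, + strand: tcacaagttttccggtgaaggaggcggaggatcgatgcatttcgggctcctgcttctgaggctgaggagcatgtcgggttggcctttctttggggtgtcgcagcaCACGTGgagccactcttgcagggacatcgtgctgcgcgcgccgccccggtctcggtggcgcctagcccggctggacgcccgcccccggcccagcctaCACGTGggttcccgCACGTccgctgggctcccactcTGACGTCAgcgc

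The Pck1 window held 1 match, a cAMP response element core on the reverse strand 90 to 86 bases before the start. The G6pc window held an insulin response motif 174 to 168 bases before the start and a TATA box at 29 to 24. The Ldha window held 2 E-boxes, at 145 to 140 and at 48 to 43 bases before the start, a further hypoxia core at 34 to 30, and 2 overlapping cAMP response element cores between 12 and 5. Among all 32851 windows of this length in the table, 17.8% held the cAMP core, 38.6% a hypoxia core, 6.02% the E-box, 5.56% the insulin response motif, 3.17% the FoxO and FoxA core, 16.1% the glucocorticoid core and 12.4% the TATA box. RefSeq listed a second start for Ldha, Pkm, Hk1 and Pcx. The second Ldha window (chr7:46846832-46847081) held a cAMP core and a hypoxia core and no E-box. A match is a description of these letters and not a measured binding site.

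Fbp1 and Pck1 were the most abundant members per length in the shams of each time. Levels are in counts per M of the scaled library (CPM), and to compare genes they were divided by the kilobases of merged exons (CPM per kb). In 48 h shams the mean level per kb was 468 ± 51.9 for Fbp1 and 386 ± 115 for Pck1 (SD, n = 6), and these ranges overlapped. Ldha at 155 ± 11.8, Pcx at 151 ± 25.3 and G6pc at 143 ± 46.2 CPM per kb followed, with overlapping ranges between neighbours. Pkm at 50.9 ± 6, Hk1 at 14 ± 2.61 and Pfkl at 9.13 ± 0.97 CPM per kb each lay apart from their neighbours in this order. Hk2 was last at 0.554 ± 0.822 CPM per kb. The order of Pkm, Hk1, Pfkl and Hk2 was the same in the shams of all 3 times. In 24 h shams Pck1 (492 ± 90.3 CPM per kb) lay above Fbp1 (296 ± 22.3) with no overlap, and in 72 h shams their ranges overlapped (447 ± 141 and 488 ± 49.3).

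**Figure D1:**
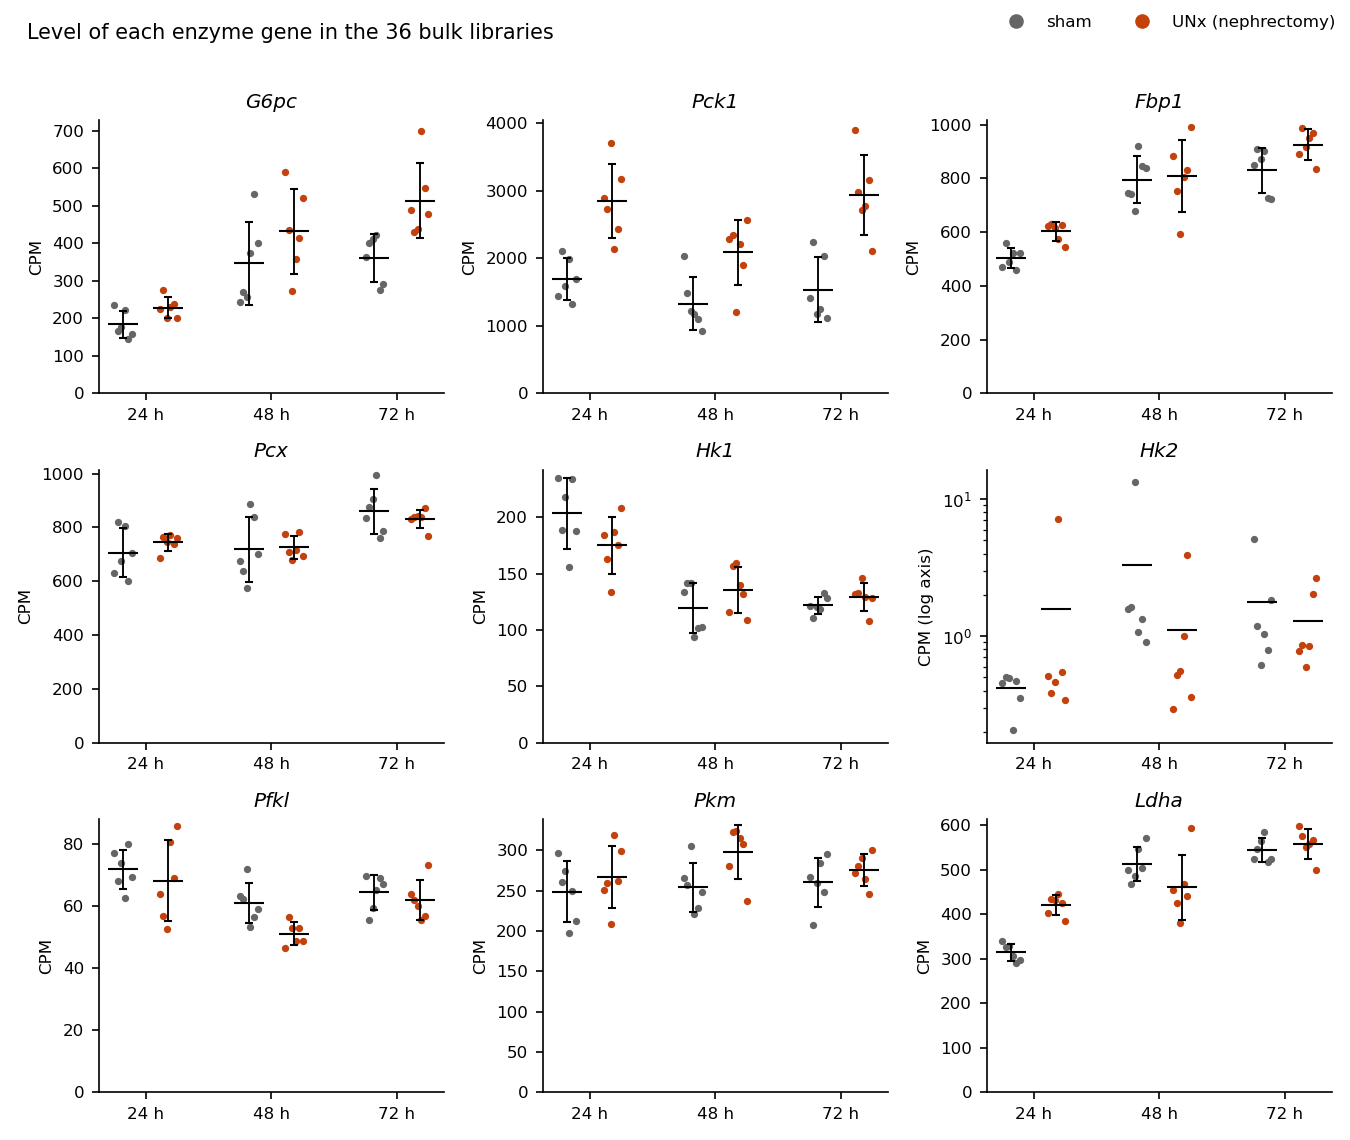
Level of each enzyme gene in CPM (y axis; log axis for Hk2) in each of the 36 bulk libraries at 24, 48 and 72 h (x axis); points are libraries, black bars the mean ± SD of 6 (for Hk2 the mean only). Pck1 is higher in UNx than in sham at all 3 times, the 24 h Ldha groups do not overlap (291 to 340 against 386 to 445 CPM), and 1 high library sets the Hk2 mean in several groups.

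Of the 9 members, Pck1 rose after nephrectomy at all 3 times, Fbp1 and Ldha rose at 24 h, and Pfkl fell at 48 h. At 24 h, 3 of the 8 members tested were called at an adjusted p under 0.05, all higher in UNx, where 27.3% of all genes tested were called in either direction, 14.2% as higher and 13.1% as lower. At 48 h, 1 of 9 was called higher and 1 lower, where 32.9% of all genes were called, 16.9% as higher and 16.0% as lower. At 72 h, 1 of 9 was called, higher, where 1.71% of all genes were called, 1.21% as higher and 0.502% as lower. The median log2 fold change of the 4 gluconeogenesis members was 0.28, 0.17 and 0.33 at 24, 48 and 72 h. That of the glycolysis members tested was 0.01, -0.16 and 0.04, and that of all genes tested was 0.01, -0.04 and 0.00.

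Pck1, the enzyme that commits oxaloacetate to glucose formation, had the largest fold change among the called members at each time. At 24 h the lowest, median and highest sham libraries had 1317, 1639 and 2111 CPM, and the UNx libraries had 2138, 2811 and 3701 CPM. The groups did not overlap, as for 5.75% of all genes in this direction. Pck1 was 1.68-fold higher (log2 0.75, SE 0.134, adjusted p = 0.00111).

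At 48 h, Pck1 in shams ranged from 923 over a median of 1201 to 2036 CPM, and in UNx from 1204 over 2249 to 2570 CPM. The groups overlapped: 5 of 6 UNx libraries lay above the sham mean and UNx replicate 3, at 1204 CPM, lay below it. The log2 fold change was 0.66 (SE 0.198, adjusted p = 0.0213). With UNx replicate 6 as the only UNx library it was 0.96. Without that library it was 0.61 (adjusted p = 0.0298).

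At 72 h, shams had 1109, 1327 and 2237 CPM of Pck1 as lowest, median and highest, and UNx libraries 2108, 2875 and 3892 CPM. Only the lowest UNx library, replicate 6, lay within the sham range. The log2 fold change of 0.94 (SE 0.19, adjusted p = 0.0266) corresponds to 1.91-fold. The call did not hold when sham replicate 3, 4 or 6 or UNx replicate 1 or 5 was left out (log2 0.84 to 0.92, adjusted p 0.0565 to 0.0684). Of the genes tested at all 3 times, 43, or 0.310%, were called higher at each, Pck1 among them.

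With the pseudogene score as a term within each time, no member was called at any time. Of all genes, that model called 78 of 14104 at 24 h, 0 of 14280 at 48 h and 88 of 14556 at 72 h. The score itself parted sham from UNx libraries at 24 h, and most UNx libraries from the shams at 48 h. Score and nephrectomy thus largely cannot be told apart there. With this term Pck1 differed by a log2 of 0.90 at 24 h (adjusted p = 0.412), 0.83 at 48 h (0.302) and 0.75 at 72 h (0.23). With the score as a term over all 36 libraries, added after seeing the data, the Pck1 values were 0.71 (adjusted p = 0.0441), 0.74 (0.216) and 0.96 (0.00815). Proximal tubule marker genes, 12 in number, summed to 26735 to 34639 CPM in 24 h shams and 25970 to 31469 CPM in UNx. They summed to 28175 to 33800 and 28765 to 40233 CPM at 48 h, and to 31314 to 40027 and 28309 to 39765 CPM at 72 h, so the ranges overlapped at each time. Liver markers (Alb, Apoa1, Serpina1a, Fgb and Ttr, all 5 present and none at 0 throughout) summed to 93.7 to 135 CPM in shams and 131 to 172 CPM in UNx at 24 h. They summed to 80.3 to 171 and 174 to 405 CPM at 48 h and to 75.1 to 158 and 203 to 290 CPM at 72 h, with no overlap at either time, and their part in the Pck1 values was not tested. In bulk tissue more cells of a type and more RNA per cell cannot be told apart.

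**Figure D2:**
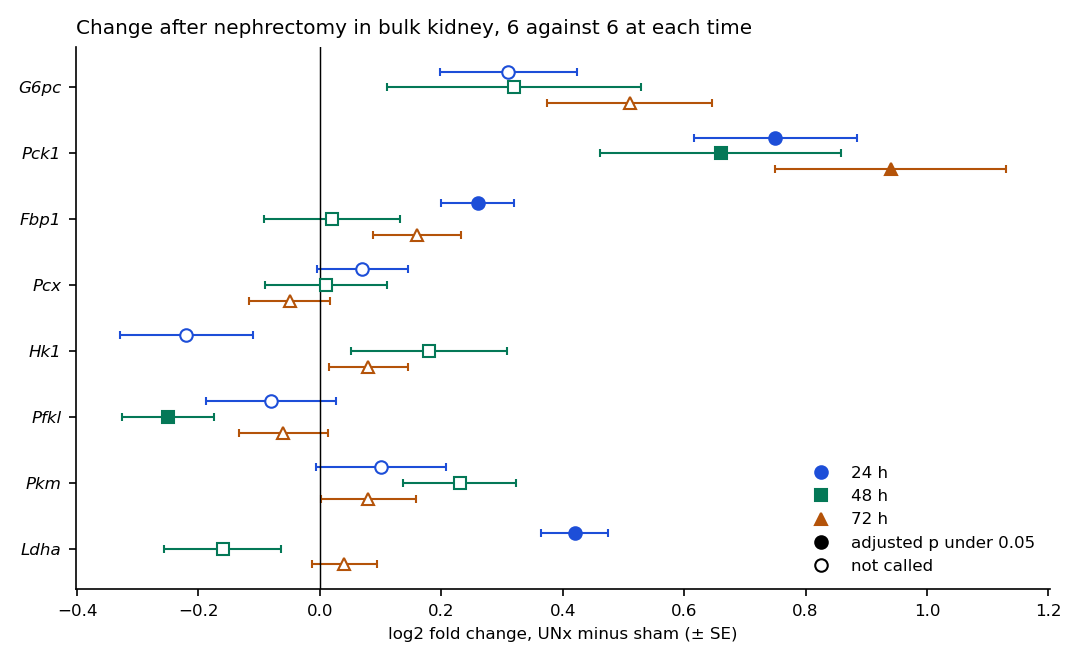
Log2 fold change of UNx against sham (x axis, ± SE, edgeR, 6 against 6) for 8 members at 24, 48 and 72 h; filled symbols have an adjusted p under 0.05. Pck1 lies furthest to the right at each time (0.75, 0.66 and 0.94), and Ldha is filled at 24 h (0.42) but not at 48 h (-0.16) or 72 h (0.04).

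G6pc, whose product releases free glucose, was not called at any time. At 24 h its shams had 145, 172 and 235 CPM as lowest, median and highest and its UNx libraries 200, 227 and 274 CPM, with overlap (log2 0.31, SE 0.113, adjusted p = 0.0538). With the pseudogene score in the model that value was 0.02. At 48 h the ranges were 244 to 530 CPM in shams and 273 to 590 CPM in UNx (log2 0.32, SE 0.209, adjusted p = 0.251). The log2 value was 0.60 with UNx replicate 6 alone and 0.74 (adjusted p = 0.369) with the score. At 72 h shams had 276, 382 and 421 CPM and UNx 429, 484 and 700 CPM. These 72 h groups did not overlap, as for 1.31% of all genes in this direction, but the adjusted p of 0.0728 (log2 0.51, SE 0.136) missed the threshold in edgeR. DESeq2 (adjusted p = 0.00974) and limma voom (0.0499) called it at 72 h, and they also called G6pc at 24 h (0.0385 and 0.0132).

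Fbp1, the phosphatase upstream of G6pc in the pathway, rose at 24 h. Shams had 459, 505 and 560 CPM and UNx libraries 546, 618 and 631 CPM; 1 UNx library, replicate 6, lay within the sham range. The log2 fold change was 0.26 (SE 0.0603, adjusted p = 0.00567), and it was 0.06 (adjusted p = 0.971) with the pseudogene score in the model. At 48 h (0.02, SE 0.112) and 72 h (0.16, SE 0.0724) Fbp1 was not called, with adjusted p of 0.887 and 0.291. With UNx replicate 6 alone the 48 h value was 0.32.

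Pcx, the mitochondrial entry step, had fold changes close to 0 at each time. Its group means lay between 707 and 744 CPM at 24 h, 719 and 726 CPM at 48 h and 832 and 859 CPM at 72 h. The log2 fold changes were 0.07 (SE 0.0753), 0.01 (SE 0.1) and -0.05 (SE 0.0661), with adjusted p of 0.49, 0.921 and 0.781.

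Ldha, the lactate dehydrogenase subunit typical of glycolytic tissue, rose at 24 h only among the 3 times tested. The 24 h shams had 291, 317 and 340 CPM as lowest, median and highest and the UNx libraries 386, 429 and 445 CPM, with no overlap. All 6 UNx libraries were thus above all shams, and the level was 1.34-fold higher (log2 0.42, SE 0.0551, adjusted p = 0.000186). The log2 value was 0.19 (adjusted p = 0.768) with the pseudogene score as a term within 24 h and 0.23 (adjusted p = 0.0246) with that score over all 36 libraries.

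At 48 h the direction of Ldha differed between UNx libraries. Shams ranged from 468 to 572 CPM; UNx replicates 1 to 5 ranged from 380 to 469 CPM and replicate 6 was at 595 CPM, above all shams. With all 6 the log2 fold change was -0.16 (SE 0.0964, adjusted p = 0.227). Without replicate 6 it was -0.22 (adjusted p = 0.0219), and with replicate 6 alone 0.22. At 72 h the ranges were 517 to 586 CPM in shams and 500 to 598 CPM in UNx (log2 0.04, SE 0.0535, adjusted p = 0.779).

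Pkm, which makes pyruvate at the end of glycolysis, was not called. Its 24 h groups spanned 198 to 297 CPM in shams and 209 to 319 CPM in UNx. At 48 h shams had 221, 253 and 305 CPM and UNx 237, 312 and 324 CPM; UNx replicate 6 was the lowest of its group, and the other 5 UNx libraries lay above the sham mean. The log2 fold change at 48 h was 0.23 (SE 0.0935, adjusted p = 0.0727), 0.31 without replicate 6 (adjusted p = 0.00734) and -0.10 with replicate 6 alone.

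Pfkl, the liver-type phosphofructokinase subunit, fell at 48 h. Shams had 53.1, 60.6 and 71.7 CPM as lowest, median and highest and UNx libraries 46.5, 50.9 and 56.4 CPM; all 6 UNx libraries lay below the sham mean, and the ranges overlapped. The log2 fold change was -0.25 (SE 0.0753, adjusted p = 0.0192), and it was -0.31 with UNx replicate 6 alone and -0.36 (adjusted p = 0.286) with the pseudogene score. At 24 h it was -0.08 (SE 0.107) and at 72 h -0.06 (SE 0.0737), not called.

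Beside the 48 h values of Pfkl and Pkm, thin limb markers, 5 genes, summed to 841 to 1160 CPM in shams and 624 to 769 CPM in UNx, with no overlap. Thick ascending limb markers, 5 genes, summed to 3753 to 6041 and 3021 to 4684 CPM. The part of these marker differences in the enzyme values was not tested.

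Hk1, the hexokinase of most tissues, was not called at any time, and the sign of its difference at 24 and 48 h depended on the libraries and the model. At 24 h shams ranged from 156 to 235 CPM and UNx from 134 to 208 CPM (log2 -0.22, SE 0.109, adjusted p = 0.156), and with the pseudogene score the log2 value was 0.05 (adjusted p = 0.993). At 48 h the ranges were 93.5 to 142 and 109 to 159 CPM (log2 0.18, SE 0.128, adjusted p = 0.284). With UNx replicate 6 alone the 48 h value was -0.13, and with the score it was -0.21 (adjusted p = 0.638). With the 48 and 72 h shams pooled it was 0.24 (adjusted p = 0.0452). At 72 h they were 111 to 133 and 108 to 146 CPM (log2 0.08, SE 0.0651, adjusted p = 0.548).

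Hk2, the inducible hexokinase of muscle and fat, was close to absent in most libraries and too low to be tested at 24 h. Its counts there were 4 to 10 in shams and 7 to 11 in UNx replicates other than replicate 4, which had 140. At 48 h the shams had 19 to 37 counts apart from replicate 3 with 298, and the UNx libraries 4 to 14 apart from replicate 5 with 57. At 72 h sham replicate 1 had 107 counts and the other 11 libraries 11 to 58. The log2 fold changes were -1.61 (SE 0.793, adjusted p = 0.131) at 48 h and -0.45 (SE 0.524, adjusted p = 0.718) at 72 h. At 24 h in UNx, in both 48 h groups and in the 72 h shams, the group mean was set by 1 library.

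The libraries high in Hk2 were also high in 5 adipocyte markers (Adipoq, Plin1, Cfd, Cidec and Lep). The summed markers reached 566 CPM in UNx 24 h replicate 4, 228 in sham 48 h replicate 3, 99.9 in UNx 48 h replicate 5 and 80.2 in sham 72 h replicate 1. In 5 of the 6 groups the library highest in Hk2 was the library highest in these markers. In the 18 libraries with a marker sum under 1 CPM, Hk2 lay between 0.293 and 0.911 CPM. The part of adipose tissue in the Hk2 values was not tested.

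Tested directly, the response of 3 members differed between 24 h and 48 h, where 37.0% of all genes did. For Ldha the effect at 48 h minus that at 24 h was a log2 value of -0.54 (SE 0.0998; adjusted p = 6.3e-05), while for Hk1 it was 0.43 (SE 0.159, adjusted p = 0.0326). For Hk2 it was -3.47 (SE 1.15, adjusted p = 0.0168), and -1.70 (adjusted p = 0.223) without UNx 24 h replicate 4 or -2.14 (adjusted p = 0.102) without sham 48 h replicate 3. With replicate 6 as the only UNx library of 48 h, a setting added after seeing the data, the Ldha difference was -0.19 and that of Hk1 0.09. With the pseudogene score in the model no member differed, where 1 of 15093 genes did, and the Hk1 difference was -0.18 (adjusted p = 0.824).

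Between 24 h and 72 h only Ldha differed among the members, by -0.36 (SE 0.0997, adjusted p = 0.0317), where 4.15% of all genes did; with the replicate block the adjusted p was 0.0507. No member differed between 48 h and 72 h in edgeR (0 of 9 at an unadjusted p under 0.05) or DESeq2, where 14.6% of all genes did in edgeR. Without UNx 48 h replicate 6, 1 member differed there, which was Ldha. The effect on Pck1 differed by -0.07 (SE 0.27) between 24 h and 48 h, 0.27 (SE 0.27) between 48 h and 72 h and 0.21 (SE 0.27) between 24 h and 72 h, with adjusted p of 0.865, 0.542 and 0.723. None of the 9 members differed between the shams of 48 h and 72 h, where edgeR called 0% of genes, 0 members at an unadjusted p under 0.05 and DESeq2 0 members.

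Other genes of glucose metabolism were taken from 4 lists. Their counts stand beside shares of all genes of 14.2% higher and 13.1% lower at 24 h, 16.9% and 16.0% at 48 h, and 1.21% and 0.502% at 72 h. Of 19 further gluconeogenesis steps and carriers, 8 rose and 1 fell at 24 h, 7 rose and 1 fell at 48 h, and 1 rose at 72 h. Their median log2 fold changes were 0.19, 0.00 and 0.09, beside 0.01, -0.04 and 0.00 for all genes. The rises at 24 h included Slc16a1, a monocarboxylate carrier for lactate (1.02, adjusted p = 0.00018), Slc25a11, the mitochondrial oxoglutarate carrier (0.53, adjusted p = 0.000253), and Got1, the cytosolic aspartate aminotransferase (0.47, adjusted p = 0.000581). Ldhb, the lactate dehydrogenase subunit of oxidative tissue, fell at 24 h from 1572 ± 224 to 1072 ± 75.4 CPM (-0.55, adjusted p = 0.000559), while its partner Ldha rose. The Ldhb value spanned -0.61 to -0.09 over 21 alternatives. At 48 h Ldhb was called in the other direction (0.37, adjusted p = 0.00769), where Ldha was not called. That Ldhb call did not hold with the pseudogene score as a term within 48 h, where 0 of 14280 genes were called. Mdh2, Got2 and G6pc3 rose at 48 h by 0.44, 0.37 and 0.31, and glycerol kinase (Gk) fell by 0.44. Over 23 alternatives the Got2 value spanned 0.1 to 0.44, and Gk was called in 13. With UNx replicate 6 alone the Gk value was 0.18. Slc16a1 rose again at 72 h (1.02, adjusted p = 0.0312).

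Of the further glycolysis steps and isozymes, 6 of 16 tested rose and 0 fell at 24 h, 6 of 18 rose and 1 fell at 48 h, and 0 of 18 were called at 72 h by edgeR (4 at an unadjusted p under 0.05; DESeq2 called 2). The medians of their log2 fold changes were 0.22, 0.12 and 0.03. Eno1 (enolase) rose from 562 ± 44.8 to 864 ± 75.4 CPM at 24 h (0.62, adjusted p = 6.5e-05), Pgam1 by 0.41 and the pyruvate kinase isozyme Pklr by 0.66. At 48 h Gapdh rose from 1942 ± 128 to 3640 ± 693 CPM (0.91, adjusted p = 0.000371), Gpi1 by 0.61 and Pgam1 by 0.27, and Eno3, the muscle enolase, fell by 0.66. Eno3 was low, at a mean of 2.48 CPM in these shams, and was called in 16 of 23 alternatives. With UNx replicate 6 alone the 48 h values of Gapdh and Gpi1 were 0.31 and 0.03.

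The list of glucose precursors and the fructose pathway had 7 of 16 genes higher and 2 lower at 24 h, 4 higher and 1 lower at 48 h, and 2 higher at 72 h, with medians of 0.17, 0.04 and 0.05. Genes of glutamine use stood among those that rose. Slc38a3, which takes up glutamine, rose at each time: its means went from 57.7 ± 3.91 to 106 ± 17.4 CPM at 24 h, from 42.1 ± 6.28 to 69.9 ± 10.4 CPM at 48 h and from 48.7 ± 9.3 to 79.1 ± 10.4 CPM at 72 h, with no overlap at any; at 48 h 6.21% of all genes lay apart in this direction. Its log2 fold changes were 0.87, 0.73 and 0.70 (adjusted p = 5.3e-05, 0.00066 and 0.0135), and 0.36 at 48 h with UNx replicate 6 alone. Glud1, glutamate dehydrogenase, rose at 24 h (0.63, adjusted p = 0.000109) and 72 h (0.41, adjusted p = 0.0362) and had 0.08 at 48 h. Oxct1 and Pccb, of ketone and propionate use, fell at 24 h by 0.39 and 0.36. At 48 h Slc13a3, a carrier of citric acid cycle intermediates, and Pdzk1 rose by 0.59 and 0.28, and Slc1a5 fell by 0.44. Over 23 alternatives the Slc13a3 value spanned 0.26 to 0.66, and Slc1a5 was called in 12. At 24 h Slc1a5 was called higher (0.63, adjusted p = 0.0488).

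Of the 33 regulators, 4 rose and 8 fell at 24 h, 6 rose and 8 fell at 48 h, and 1 fell at 72 h, beside the shares of all genes given above (14.2% higher and 13.1% lower at 24 h, 16.9% and 16.0% at 48 h). The list's median log2 fold change was -0.07, -0.08 and -0.13. At 24 h Cebpb, Pfkfb4 and Pdhb rose by 0.56, 0.33 and 0.19. Of 21 alternatives, 19, 12 and 13 called them. Mlxipl, the carbohydrate response factor, and Crtc2, a CREB coactivator, fell by 0.62 and 0.48. Over 21 alternatives these 2 values spanned -0.67 to -0.17 and -0.53 to -0.08. At 48 h both were called in the other direction, by 0.38 (adjusted p = 0.0318) and 0.51 (adjusted p = 0.00672). Neither 48 h call held with the pseudogene score as a term within that time, where 0 of 14280 genes were called. At 48 h Pdk2 and Pdk3 rose by 0.74 and 0.46, and Pfkfb2, Nr3c1 (the glucocorticoid receptor) and Insr (the insulin receptor) fell by 0.50, 0.36 and 0.34. The Nr3c1 value spanned -0.4 to -0.04 over 23 alternatives. With UNx replicate 6 alone Pdk2 had 0.08, and at 24 h it was called lower (-0.55, adjusted p = 0.00158). Insr was also lower at 72 h (fell by 0.26, adjusted p = 0.043), but in 14 of 22 alternatives it was not called there (adjusted p up to 0.267). These were the fits without sham replicate 1, 2, 3, 4 or 6 or UNx replicate 1, 2, 3, 4 or 5, without a filter, with the replicate block, with the pseudogene score and with pooled shams. Of all genes in these lists and the members, Pck1, Slc38a3 and Slc16a1 were called higher at each of the 3 times and Insr lower at each, in the fits by time; 0.123% of all genes were called lower at each. With the pseudogene score as a term within 24 h, 78 of 14104 genes were called. Slc38a3 (1.31, adjusted p = 0.015), Eno1 (0.89, adjusted p = 0.029) and Pklr (1.17, adjusted p = 0.0339) were among them, and the other genes named for 24 h were not. With that score within 48 h, 0 of 14280 genes were called, so none of the genes named for 48 h was. With it within 72 h, 88 of 14556 genes were called. Slc16a1, Slc38a3, Glud1 and Insr were not among them (adjusted p = 0.233, 0.127, 0.166 and 0.267). Slc16a1 at 72 h was also not called without sham replicate 2 or 4 or UNx replicate 1, 3, 4 or 5 (adjusted p 0.0505 to 0.0679), nor Glud1 without sham replicate 2, 3, 4, 5 or 6 or UNx replicate 1, 2, 3, 4 or 5 (0.0502 to 0.086). The 48 h values of Slc16a1, Ldhb, Mlxipl, Crtc2 and Glud1 are given from the fit by time alone. So are the 24 h values of Insr, Pdk2 and Slc1a5. Values with UNx replicate 6 alone rest on 1 UNx library and are given without a call.

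**Figure D3:**
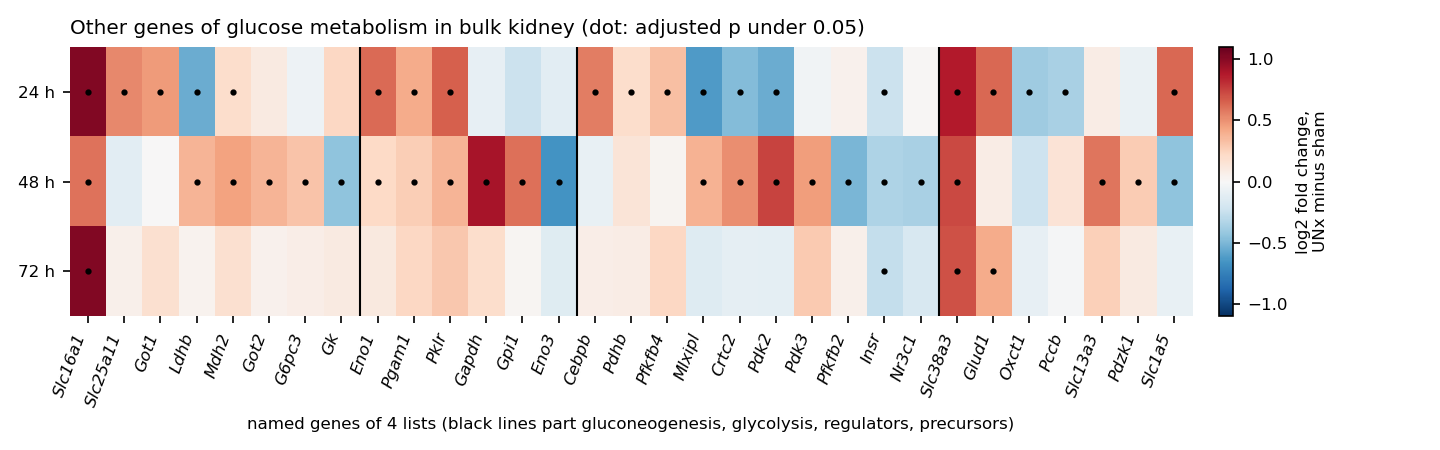
Log2 fold change of UNx against sham (colour; red higher, blue lower) at 24, 48 and 72 h (rows) for the named genes of the 4 lists (columns); dots mark an adjusted p under 0.05. Slc16a1, Slc38a3 and Insr carry a dot at all 3 times.

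In the nuclei the members separated by nephron segment. The labels' classes PTS1, PTS2 and PTS3 are the proximal tubule segments S1 to S3, and Slc34a1, a phosphate carrier that marks S1 and S2, was at 5268 to 6210 CPM in PTS1, 4027 to 5472 in PTS2 and 321 to 1929 in PTS3. The replicate 1 mice (batch 3) and replicate 2 mice (batch 4) differed in how much proximal tubule RNA was found outside these classes. In the medullary thick ascending limb class (MTAL), Slc34a1 was at 105 and 134 CPM in the replicate 1 mice and 1549 and 1404 CPM in the replicate 2 mice. Mitochondrially encoded genes took 0.603 and 0.924% of UMIs in the replicate 1 mice and 5.05 and 7.36% in the replicate 2 mice. Levels by class are therefore given for the replicate 1 mice first. Whether levels of proximal tubule genes in other classes come from free RNA was not tested.

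In the replicate 1 mice Pck1, Fbp1 and G6pc had their highest levels among the 23 tested classes in the proximal tubule. Pck1 had 208, 299 and 332 CPM in PTS1, PTS2 and PTS3 of the sham and 556, 564 and 381 CPM in the UNx mouse, against 6.13 to 46.3 CPM and 40.8 to 109 CPM over the 20 other classes. Fbp1 had 635 and 579 CPM (sham and UNx) in PTS1, 441 and 498 CPM in PTS2 and 385 and 328 CPM in PTS3. G6pc was high in PTS1 (199 and 255 CPM) and PTS2 (164 and 295) and low in PTS3 (24.5 and 24.3). In PTS3 of the sham mouse G6pc did not exceed its level in the parietal epithelium class (PEC, 25.3 CPM). In the replicate 2 mice the mean over PTS1 to PTS3 was 1.83 and 1.88 times the median of the other classes for Pck1, against 11.7 and 6.7 times in the replicate 1 mice.

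Pcx was not restricted to the proximal tubule. It was highest in the medullary principal cell class (MPC) in all 4 mice, at 519, 467, 833 and 529 CPM in sham replicates 1 and 2 and UNx replicates 1 and 2. The urothelial class (Uro) had 326, 253, 685 and 304 CPM and the thin limb class DTL3-ATL 287, 296, 451 and 351 CPM, next to 329, 233, 362 and 263 CPM in PTS1. Its level in MTAL was 49.1 and 43.3 CPM in the replicate 1 mice.

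Hexokinase 1 and pyruvate kinase showed the opposite distribution. Hk1 was at 2.83 to 10.2 CPM in the PTS classes of the replicate 1 mice and at 407 and 398 CPM in MTAL, where it was highest in 3 of 4 mice; the 2 cortical classes CTAL1 and CTAL2 had 312 to 369 CPM in these mice. In the replicate 2 mice the PTS classes had 31.3 to 76.7 CPM. Pkm was at 3.55 to 10.7 CPM in PTS classes and at a median of 57.2 and 80 CPM in the other classes of the replicate 1 mice. Pfkl was low throughout, with 5.35 to 6.82 CPM in PTS classes and 25.7 and 28.8 CPM in MTAL of the replicate 1 mice. Ldha differed least between proximal tubule and the rest: its mean over PTS classes was 34.9 and 46.4 CPM beside a median of 44.6 and 49.1 CPM elsewhere.

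Hk2 reached at most 11.3 CPM in a tested class, in urothelium of UNx replicate 2. In that mouse 294 of its 390 Hk2 UMIs came from 55 nuclei that the authors' annotation calls Adipo, a class with 2 to 6 nuclei in the other mice and so not tested. Of the adipocyte markers, these 55 nuclei held 302 of the 434 Plin1 UMIs of that mouse and 146 of the 330 Cidec UMIs. They held smaller shares of the other markers: 3 of 15 Lep, 17 of 183 Adipoq and 50 of 1738 Cfd UMIs. They also held 768 Pck1 UMIs, or 792 CPM, and 71 G6pc UMIs, or 73.7 CPM. Over the tested classes other than proximal tubule in that mouse, Pck1 ranged from 283 to 740 CPM and G6pc from 46.3 to 281 CPM. The CPM of Adipo nuclei are shares of their total counts without TMM scaling, unlike those of the tested classes. The 2 to 6 Adipo nuclei of the other mice held 18 to 104 Pck1 UMIs each, or 560 to 2089 CPM.

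**Figure D4:**
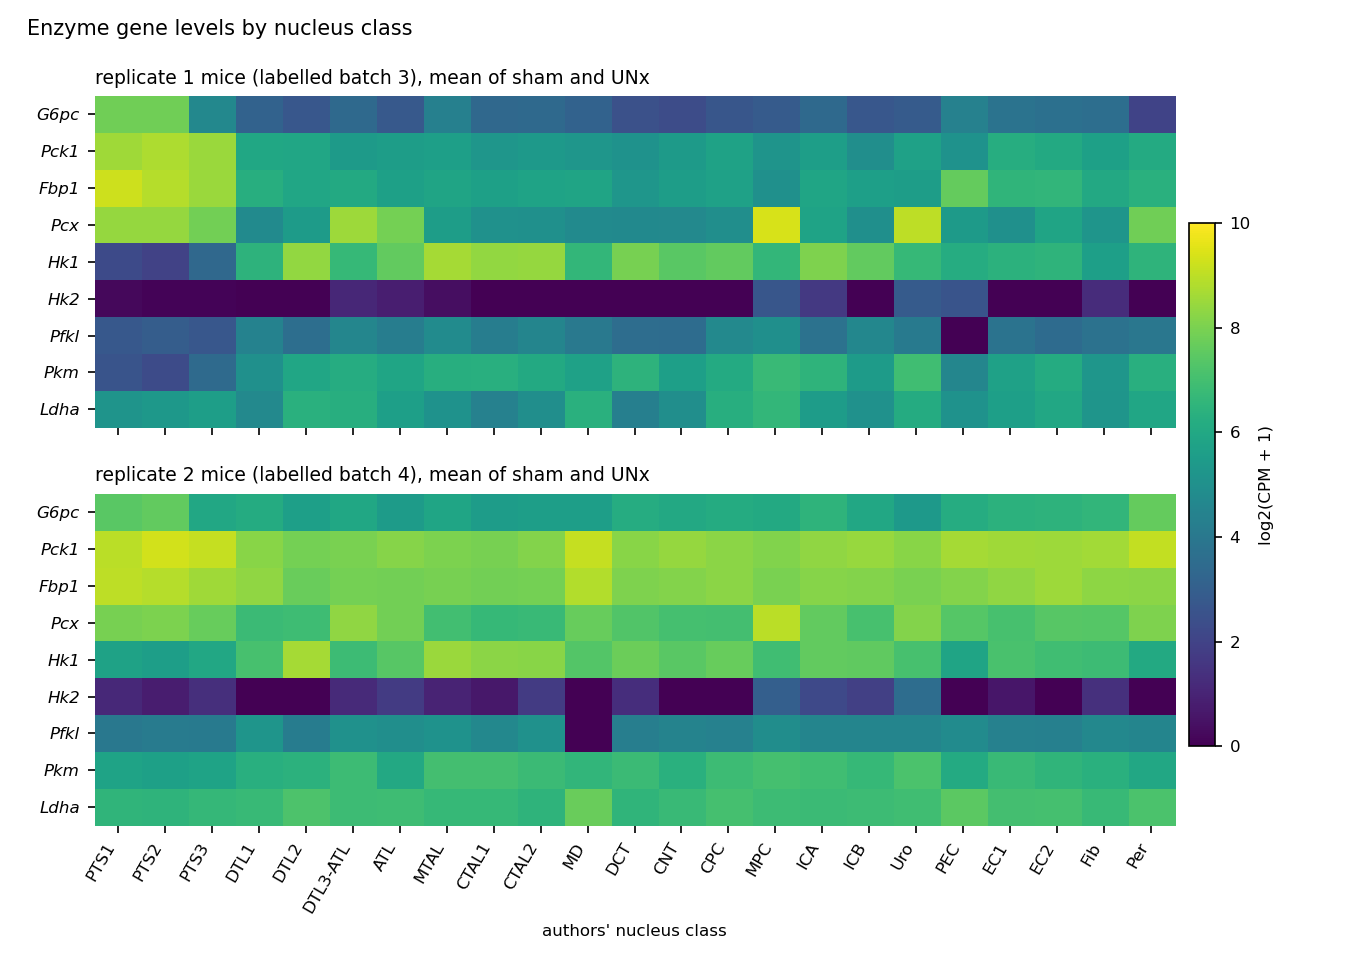
Mean log2(CPM + 1) of each member (rows) in 23 nucleus classes (columns), in the replicate 1 mice (upper) and replicate 2 mice (lower), each averaged over sham and UNx. The upper panel separates proximal tubule classes, high in G6pc, Pck1 and Fbp1 and low in Hk1 and Pkm, and in the lower panel these contrasts are smaller.

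No member was called between UNx and sham nuclei with 2 mice against 2, by edgeR or DESeq2, over all nuclei (1 of 9 at an unadjusted p under 0.05 in edgeR) or in 23 classes (1 of 170 tests of members). Over all nuclei edgeR called 0% of 19976 genes, with 360 at an unadjusted p under 0.05, and DESeq2 called 23. An exact permutation test of 2 against 2 cannot give a two-sided p below 0.333. Labelled batches pair the mice, since each batch held 1 sham and 1 UNx mouse. A fit with this pairing rests on 2 pairs, and its p-values lean on variance estimates shared across genes. With this replicate block edgeR called 1.04% of genes over all nuclei and 1 member, G6pc. Summed over all nuclei, G6pc went from 76.1 to 117 CPM in batch 3 and from 73.5 to 140 CPM in batch 4. Its log2 fold change was 0.78 in both fits, with an SE of 0.16 and an adjusted p of 1 without the block. With the replicate block the SE was 0.105 and the adjusted p 0.044.

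Within proximal tubule classes G6pc and Pck1 were higher in UNx of both batches in PTS1 and PTS2. In PTS2, G6pc went from 164 to 295 CPM in batch 3 and from 103 to 279 CPM in batch 4. There the log2 value was 1.1 (SE 0.286, not called) without the block. With the replicate block it was 1.14 (SE 0.171, adjusted p = 0.00483), where 3.05% of genes were called. In PTS1 G6pc went from 199 to 255 and from 115 to 226 CPM. Its log2 value was 0.62 (SE 0.323) without the block and 0.66 (SE 0.157, adjusted p = 0.0832) with it. In PTS3 the batch 3 mice had 24.5 and 24.3 CPM of G6pc and the batch 4 mice 41.6 and 85.2 CPM. Slc34a1 in PTS1 was 5268 and 5447 CPM in batch 3 and 6210 and 6120 CPM in batch 4, sham and UNx. Lrp2 (megalin), another proximal tubule marker, was lower in UNx of both batches in all 3 classes: from 2800 to 1403 and from 2785 to 2241 CPM in PTS1, from 2853 to 1605 and from 3494 to 2467 CPM in PTS2, and from 2084 to 1096 and from 2147 to 1718 CPM in PTS3. It was not called with the replicate block (adjusted p = 0.175, 0.083 and 0.132), and its part in the enzyme values was not tested.

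Pck1 in PTS1 went from 208 to 556 CPM in batch 3 and from 412 to 596 CPM in batch 4 (log2 0.89, SE 0.381). In PTS2 it went from 299 to 564 and from 531 to 750 CPM (log2 0.66, SE 0.362). Neither was called without the block. With the replicate block PTS1 had a log2 of 0.98 (SE 0.197, adjusted p = 0.0473), where 1.64% of genes were called. PTS2 had 0.71 (SE 0.164, adjusted p = 0.043) in that fit. In PTS3 Pck1 had 332 and 381 CPM in batch 3 and 462 and 643 CPM in batch 4, with an adjusted p of 0.386 in the same fit, where 2.38% of genes were called. Whether the change differed between segments was not tested.

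Outside the proximal tubule the replicate block called Pck1 in the connecting tubule class (CNT, adjusted p = 0.0273, where 0.429% of genes were called) and in type A intercalated cells (ICA, adjusted p = 0.000164, where 0.797% were). Its CNT levels were 29.8 and 55 CPM in batch 3 and 249 and 442 CPM in batch 4 (sham, UNx). Its ICA levels were 22.1 and 74.6 CPM and 208 and 434 CPM. In the same samples Slc34a1 was at 103 and 106 CPM and 1801 and 1637 CPM in CNT and at 108 and 123 CPM and 2867 and 2172 CPM in ICA. Kap, another abundant proximal tubule transcript, was at 3490 and 5759 CPM in batch 3 and 7195 and 10146 CPM in batch 4 in ICA. The replicate block called Kap there as well (log2 0.61, adjusted p = 0.0271). Pck1 was higher in UNx of both batches in 20 of the 23 classes and lower in both in 0. For the other members the number higher in both ran from 3 (Hk2) to 18 (Ldha). Kap was higher in both in every tested class but the one labelled MD. These classes share the same 4 mice. The part of free proximal tubule RNA in these values was not tested.

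Ldha over all nuclei was 32.9 and 44.9 CPM in batch 3 and 93 and 124 CPM in batch 4. Its log2 difference was 0.43 (SE 0.728) without the block and 0.43 (SE 0.0853, adjusted p = 0.0843) with the replicate block. By class, Ldha was higher in UNx of both batches in 18 of 23. Fbp1 had 281 and 285 CPM in batch 3 and 361 and 392 CPM in batch 4. Hk1 in MTAL, its class of highest level, had 407 and 398 CPM in batch 3 and 315 and 409 CPM in batch 4. Over all nuclei the log2 differences of Hk1, Pkm and Pfkl were 0.34 (SE 0.282), 0.27 (SE 0.701) and 0.55 (SE 0.56), none called.

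**Figure D5:**
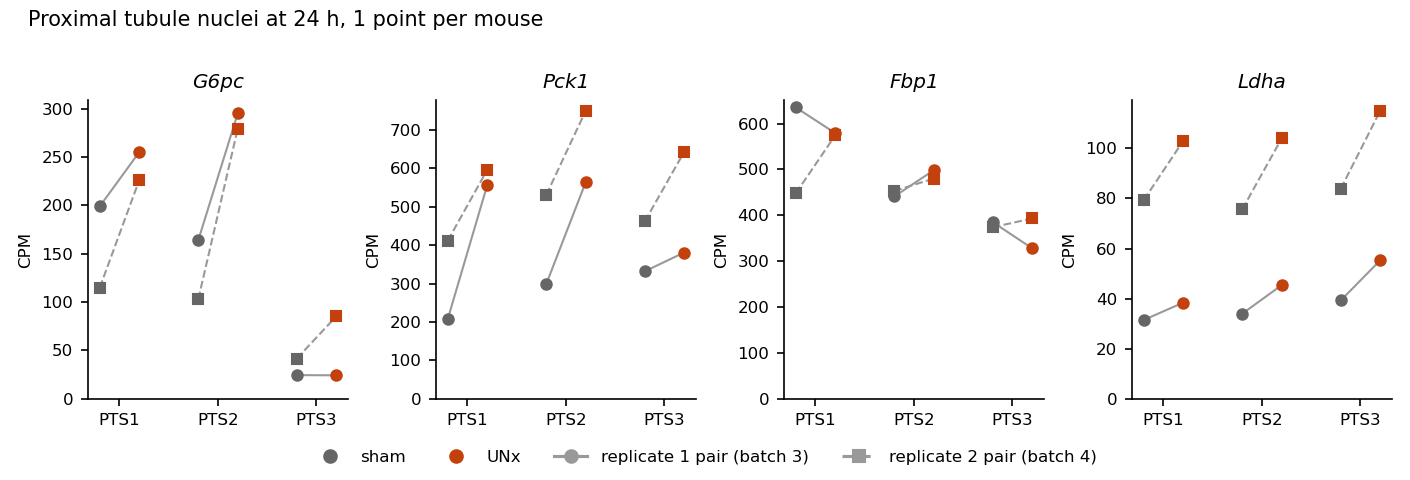
CPM (y axis) of G6pc, Pck1, Fbp1 and Ldha in PTS1, PTS2 and PTS3 (x axis) of each of the 4 mice; lines join the sham and UNx mouse of a labelled batch. G6pc and Pck1 lines rise in both batches in PTS1 and PTS2, and Fbp1 lines do not share a direction in PTS1.

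Across the 23 classes, the genes with the profile most like Pck1 (Pearson correlation of mean log2(CPM + 1)) were Aass (0.973), a lysine-degrading enzyme, Ak4 (0.962), a mitochondrial adenylate kinase, and Slc17a3 (0.962), an anion carrier. For G6pc they were Ces1d (0.952), Slc26a1 (0.931) and Slc34a1 (0.914), and for Fbp1 they were Fmo1 (0.968), Acsm2 (0.95) and Pecr (0.948). For Pcx they were Map3k15 (0.866), Dqx1 (0.858) and Me1 (0.856), and for Hk1 they were Pfkp (0.888), the platelet-type phosphofructokinase subunit, Hadha (0.88) and Ptpn18 (0.874). For Pkm they were Abcc1 (0.86), Pik3r3 (0.825) and Cdkl3 (0.823). Pfkl was closest to Zfp52 (0.827), Dipk2a (0.757) and AU022754 (0.744), and Ldha to Topbp1 (0.893), Bax (0.848) and Rhbdd1 (0.838). Among members, Pck1 correlated at 0.939 with Fbp1, 0.777 with G6pc and -0.85 with Hk1. Classes share mice, depth and free RNA, and these values are descriptions; by rank correlation at most 1 of the 3 genes named for a member stayed among its closest 3. Hk2 was too low in every class for this comparison.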

How the data were processed

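The members, the pathway lists and the marker lists were chosen with earlier results of these data known. The authors deposited bulk values as estimated counts per Ensembl gene (FastQC 0.11.8, Salmon 1.5.0, R 4.10 and build GRCm39, per the submitters' processing notes) and nucleus values as estimated UMI counts with an annotation of 30 classes (alevin, Seurat and build mm10, per the same notes). The annotation's method, the Salmon index and filters on nuclei were not given in the sources used. Per the labels, bulk libraries were stranded mRNA libraries and nuclei were sorted on DAPI before 3′ droplet sequencing. Replicates are labelled as separate samples.

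Estimated counts were rounded to whole numbers. In bulk 34.1% of deposited values were not whole, and in nuclei 13.9% of values above 0. Of 28467 bulk genes, 28340 matched a symbol in the reference annotation. Each time was fitted separately with edgeR 4.0.16 (filterByExpr, TMM, quasi-likelihood test, Benjamini-Hochberg over all genes tested, threshold 0.05) in R 4.3.3. CPM were TMM-scaled within a time, so levels compared across times carry that scaling. Differences between times came from 1 fit of 36 libraries. Nuclei were summed per mouse and class, for 23 classes with at least 10 nuclei in every mouse, and fitted likewise; 4 mice gave 16500 nuclei with a median of 8297 UMIs, of which 36 carried a barcode found in more than 1 mouse. Doublets were not called. DESeq2 1.42.0 and limma 3.58.1 served as alternatives, beside those named in the closing section. The edgeR test was also run on simulated counts without batches or libraries set apart, and the outcome is not reported here. Named pathway genes were up to 3 called genes per list, time and direction, by lowest p, of which some are not reported here; genes most like a member were the 3 with the highest correlation over classes, at 10 CPM or more in a class.

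Replicate numbers in bulk did not pair samples (correlations of same-numbered samples -0.285 to 0.135). In nuclei the labels tie the number to a batch (correlation 0.806), so the replicate block is given beside the results it changes.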

Additional observations from a re-analysis of the deposited data

Results flagged for a closer look

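In 4 groups 1 library lay far above the other 5 for Hk2. These were UNx 24 h replicate 4 at 7.17 CPM, sham 48 h replicate 3 at 13.3 CPM, UNx 48 h replicate 5 at 3.89 CPM and sham 72 h replicate 1 at 5.11 CPM. In each of these the same library also had the highest summed adipocyte markers of its group (566, 228, 99.9 and 80.2 CPM). Over 9 members and 6 groups, 54 sets of 6 libraries were examined, and chance alone would mark about 1 in 20. No library of another member was marked.

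The UNx effect differed between time points for 3 members in tests of the difference. From 24 h to 48 h it changed by 0.43 for Hk1, by -3.47 for Hk2 and by -0.54 for Ldha on the log2 scale, and from 24 h to 72 h by -0.36 for Ldha. The Hk2 value rests on the libraries named above, and the 24 h libraries are of another batch than the later ones, so that batch and time cannot be told apart.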

How the results depend on the processing

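Alternatives covered the tool, normalization, filter, mitochondrial genes, pooled shams, 1 fit of 36 libraries, the pseudogene score, pairing and leaving out each library. Chosen after seeing the data were the score in a fit of 36 libraries, leaving out each of 36 libraries for the differences, and UNx 48 h replicate 6 alone in them. Members called numbered 3, 2 and 1 at 24, 48 and 72 h. With the score within a time all 3 counts were 0, where 78 of 14104, 0 of 14280 and 88 of 14556 genes were called. At 48 h the count was 4 with limma voom and with pooled shams and 2 to 4 without 1 library. With the score over 36 libraries the 48 h count was 0, where 16 of 15093 genes were called. At 72 h it was 2 with DESeq2 and limma voom and 0 to 1 without 1 library. Members whose effect differed between 24 and 48 h went from 3 to 0 with the score, where 1 of 15093 genes was called. Between 24 and 72 h the 1 member went to 0 with the score and the replicate block and to 0 to 1 without 1 library. This last call was lost without any of 8 libraries (sham 24 h replicates 4, 5 and 6, sham 72 h replicate 4 and UNx 24 h replicates 2 to 5). Between 48 and 72 h the count was 0 to 1.

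Signs turned as follows; of these values Pdhb at 24 h, Gk at 48 h and the Hk1 difference between 24 and 48 h had been called. At 24 h with the score Hk1 was 0.05, Pfkl 0.42 and Pdhb -0.06. At 48 h Hk1 was -0.21, Pkm -0.13, Ldha 0.23 and Gk 0.13 with the score, -0.13, -0.10, 0.22 and 0.18 with replicate 6 alone, and -0.21, -0.08, 0.22 and 0.14 with the score over 36 libraries. Pcx was -0.04 with pooled shams and -0.05 with replicate 6 alone at 48 h, and 0.01 with pooled shams at 72 h. Without 1 library Pcx spanned -0.04 to 0.08 and Fbp1 -0.02 to 0.1 at 48 h, and Hk2 -0.81 to 0.23 at 72 h. The Pck1 difference between 24 and 48 h was 0.03 with the score, 0.22 with replicate 6 alone and -0.18 to 0.07 without 1 library; between 48 and 72 h it was -0.02 with replicate 6 alone. The Hk1 difference between 24 and 48 h was -0.18 with the score, and its call was lost without any of 10 libraries (sham 24 h replicates 1, 3 and 5, sham 48 h replicates 4 to 6, UNx 24 h replicates 2 and 3, and UNx 48 h replicates 2 and 3). The cause was not tested.

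In nuclei the replicate block called 1 member over all nuclei and 5 member and class pairs in place of 0; without sham replicate 2 the class count was 1 (range 0 to 1), G6pc in Per, a class of 12 to 35 nuclei per mouse. Without 1 mouse, all-nuclei values spanned -0.17 to 0.29 for Fbp1, -0.04 to 0.64 for Hk1, -0.06 to 3.89 for Hk2, -0.33 to 1.09 for Pfkl, -0.64 to 1.15 for Pkm and -0.49 to 1.38 for Ldha, and in PTS3 -0.43 to 1.37 for G6pc and -0.05 to 0.7 for Pck1. The replicate block in bulk, where numbers did not pair samples, left the counts by time at 3, 2 and 1; 2 of 18 correlated best with their own number.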

Other observations

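The nuclei that the authors' annotation calls Adipo held Pcx at 747, 742, 861 and 292 CPM in sham replicates 1 and 2 and UNx replicates 1 and 2. Pck1 there was at 560, 2089, 1790 and 792 CPM. These values rest on 5, 2, 6 and 55 nuclei, and no test was made. Hk1 UMIs numbered 0 in the first 3 of these mice and 90 in the last.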
